A study of Mus musculus with 8 samples.

Results

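Retinoic acid synthesis and the retinoid receptors were described here by 9 genes, Aldh1a1, Aldh1a2, Aldh1a7, Rbp4, Rara, Rarb, Rxra, Rxrb and Rxrg. They were found as all probe sets to which the platform annotation gives 1 of these symbols and no other, which took 11 of the 45101 probe sets on the array, 3 of them for Rxra and 1 for each other gene. Total RNA of mouse gastrocnemius, the large calf muscle, was labelled with biotin and hybridised to 1 Affymetrix array per sample. The 4 GR_KO samples carried a knockout of the glucocorticoid receptor, the hormone-activated transcription factor encoded by Nr3c1, which the study's design text writes as GR(i)skm-/-. The 4 WT samples were labelled wild type. Both groups had the strain background C57/Bl6J and no treatment is recorded for either. The age and sex of the mice, and the promoter and timing of the deletion, are not stated in the labels. Whole muscle also holds cells other than myofibres.

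Retinoic acid, made from vitamin A, acts as a ligand of nuclear receptors. Retinol travels in blood bound to the carrier Rbp4, cells oxidise it to retinaldehyde, and retinaldehyde dehydrogenases such as Aldh1a1 and Aldh1a2 oxidise retinaldehyde to retinoic acid. The acid binds the receptors Rara, Rarb and Rarg, which sit on DNA as pairs with Rxra, Rxrb or Rxrg, and Cyp26 enzymes break it down. The RXR receptors also pair with other nuclear receptors, among them those for thyroid hormone, fatty acids and oxysterols. Rarb is itself a well-known target gene of retinoic acid.

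The family was chosen on the contrast of GR_KO against WT on these same arrays, in which the signal of Aldh1a1 was among those called. The values of that contrast are therefore a description of the family and not independent support for it. Signals are MAS5 values, the authors' summary of the probes of 1 probe set on a linear scale, and the number of arrays limits their precision. A signal of 1 probe set was not set against that of another, since probes differ in how brightly they bind.

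Promoter windows from RefSeq (GRCm38.p6) were found for all 9 genes, 17 windows in all, each running from 250 bases before to 50 bases after an annotated transcript start. Those below are shown because Aldh1a1 and Aldh1a7 are neighbouring, closely related genes, and because Rarb carries a textbook retinoic acid response element. Aldh1a1 lies on chromosome 19 at 20492583 to 20643463 and Aldh1a7 at 20692953 to 20727556, with 49489 bases between their annotated ends. In the first 2 sequences the capitals mark runs of at least 12 bases that are identical in both after global alignment, and in the last they mark the direct repeat. The windows are chr19:20601718-20602017 (plus strand) for the downstream of 2 annotated Aldh1a1 starts, chr19:20727507-20727806 (minus strand) for Aldh1a7 and chr14:16575427-16575726 (minus strand) for Rarb.
Aldh1a1: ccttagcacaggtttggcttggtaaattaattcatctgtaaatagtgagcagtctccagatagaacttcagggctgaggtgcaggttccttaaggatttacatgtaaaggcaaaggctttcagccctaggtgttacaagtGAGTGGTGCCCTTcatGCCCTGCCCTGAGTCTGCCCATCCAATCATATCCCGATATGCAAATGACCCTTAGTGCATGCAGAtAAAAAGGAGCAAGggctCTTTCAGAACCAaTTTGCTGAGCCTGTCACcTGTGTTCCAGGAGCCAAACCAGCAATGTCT
Aldh1a7: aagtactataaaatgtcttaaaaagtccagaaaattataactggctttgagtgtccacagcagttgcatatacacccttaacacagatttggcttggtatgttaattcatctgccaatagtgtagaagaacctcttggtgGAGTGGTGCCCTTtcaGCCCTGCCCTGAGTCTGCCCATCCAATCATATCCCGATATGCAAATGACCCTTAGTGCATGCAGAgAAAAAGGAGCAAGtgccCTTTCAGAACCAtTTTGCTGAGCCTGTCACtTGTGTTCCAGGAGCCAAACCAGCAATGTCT
Rarb: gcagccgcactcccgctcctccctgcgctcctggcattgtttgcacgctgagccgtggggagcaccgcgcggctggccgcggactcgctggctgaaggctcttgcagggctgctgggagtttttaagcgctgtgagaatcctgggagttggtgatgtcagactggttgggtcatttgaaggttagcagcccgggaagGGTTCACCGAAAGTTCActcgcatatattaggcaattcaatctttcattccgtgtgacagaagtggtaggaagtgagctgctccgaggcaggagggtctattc

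The 300 bases of Aldh1a1 and Aldh1a7 aligned with 221 identical bases among 285 aligned bases (77.5%), and the last 150 bases of each with 142 of 150 (94.7%). The shared runs numbered 6, and the longest was 65 bases. The upstream annotated start of Aldh1a1, whose window begins 109385 bases earlier, matched the Aldh1a7 window at 65.3% of aligned bases, against 45.0% to 59.8% for the windows of the other 7 genes, which had been aligned in the same way. In Rarb the repeat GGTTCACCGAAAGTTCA lay from -53 to -37 relative to the annotated start, counted as 0. It holds the half-sites GGTTCA and AGTTCA with 5 bases between them. The pattern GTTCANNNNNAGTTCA is this repeat without its first base and with any bases in the spacer, so its match in Rarb was given in advance. Searched on both strands, the pattern was found in 1 of the 17 windows, that of Rarb. It was found in 0.0335% of 32817 promoter windows of all genes. AGGTCA, the half-site of the receptors of this family, was found on either strand in 3 of the 17 windows, 1 each of Rara, Rxra and Rxrg, and in 16.3% of all windows. AGAACA, a half-site of the glucocorticoid receptor element (TGTTCT on the other strand), was found in 0 of the 17 windows and in 19.0% of all windows. The full elements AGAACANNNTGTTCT and AGGTCANNNNNAGGTCA each matched 0 of the 17 windows and 0.00914% of all windows. A missing match says only that these letters are not in these windows.

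Nr3c1 was lower on the GR_KO arrays. At probe set 1460303_at its signals were 134, 79, 76 and 94 on GR_KO arrays 1 to 4 and 377, 307, 307 and 352 on WT arrays 1 to 4, with no overlap. Of its 6 probe sets 2 had separate groups. The brightest, 1421867_at, overlapped, at 222, 169, 120 and 105 in GR_KO and 289, 213, 287 and 513 in WT muscle. Its log2 fold change was -1.07 ± 0.29 (SE). In limma over single probe sets the adjusted p was 0.024 at 1460303_at and 0.963 at 1421867_at. In the gene fit, where a gene stands by its brightest probe set, Nr3c1 was not among the genes called lower. Whether a probe set lies inside the deleted part was not analysed here. WT replicate 4 stood apart from the other arrays: its 18 probe sets for spike-in controls had a geometric mean signal of 1765, against 496 to 623 on the other WT arrays and 521 to 865 on the GR_KO arrays. The authors' scaling had set the trimmed mean to 99.960 to 99.964 on every array. The myofibre markers, all 9 of them tested, were bright on every array: their summed signal was 91045 to 143875 in GR_KO and 98145 to 218899 in WT muscle, the highest on WT replicate 4.

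Aldh1a1, a cytosolic retinaldehyde dehydrogenase, was the member with separate groups. Its probe set 1416468_at gave signals of 184, 99, 113 and 118 on GR_KO arrays 1 to 4 and 566, 330, 498 and 463 on WT arrays 1 to 4. The highest GR_KO signal lay below the lowest WT signal. GR_KO replicate 1 had the highest Aldh1a1 signal of its group. It also had the highest Nr3c1 signal of its group at 1460303_at, 1421866_at, 1421867_at and 1457635_s_at. At 1453860_s_at (86) and 1431378_at (12) replicate 2 had the highest instead. A link between the signals of the 2 genes was not tested. The mean was 128 ± 37.9 in GR_KO and 464 ± 99.2 in WT muscle (SD, n = 4 each), so the geometric mean of the GR_KO signals was 27.4% of that in WT. This is a log2 fold change of -1.87 ± 0.22 (SE), with a 95% interval from -2.35 to -1.38, which is 0.196 to 0.384 of the WT level. In RNA of a whole muscle, fewer cells of a type and less RNA per cell cannot be told apart.

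In limma over all 11062 genes whose brightest probe set was above the signal filter, Aldh1a1 was called lower (adjusted p = 0.0132), as were 5 other genes, a background of 0.0542%. By p it was number 3, and 3 of the genes tested had a log2 fold change at or below that of Aldh1a1, itself included. Separate groups with GR_KO lower were seen in 1.29% of all genes tested. In the fit of 22518 single probe sets, where 0.0222% were called lower, its adjusted p was 0.0339. Because these calls were known when the family was chosen, they describe Aldh1a1 and give no further support. The call was lost when any of 5 arrays was left out. With GR_KO replicate 2, 3 or 4 left out the adjusted p was 0.0823, 0.0833 or 0.0974. With WT replicate 1 or 3 left out it was 0.116 or 0.119, and with any other array left out it was 0.00948 to 0.0203. Its log2 fold change stayed between -2.05 and -1.76 throughout, and was -1.86 without WT replicate 4. The call was also lost with no signal filter (adjusted p = 0.0863) and with eBayes without a mean-variance trend (adjusted p = 0.0548).

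**Figure D1:**
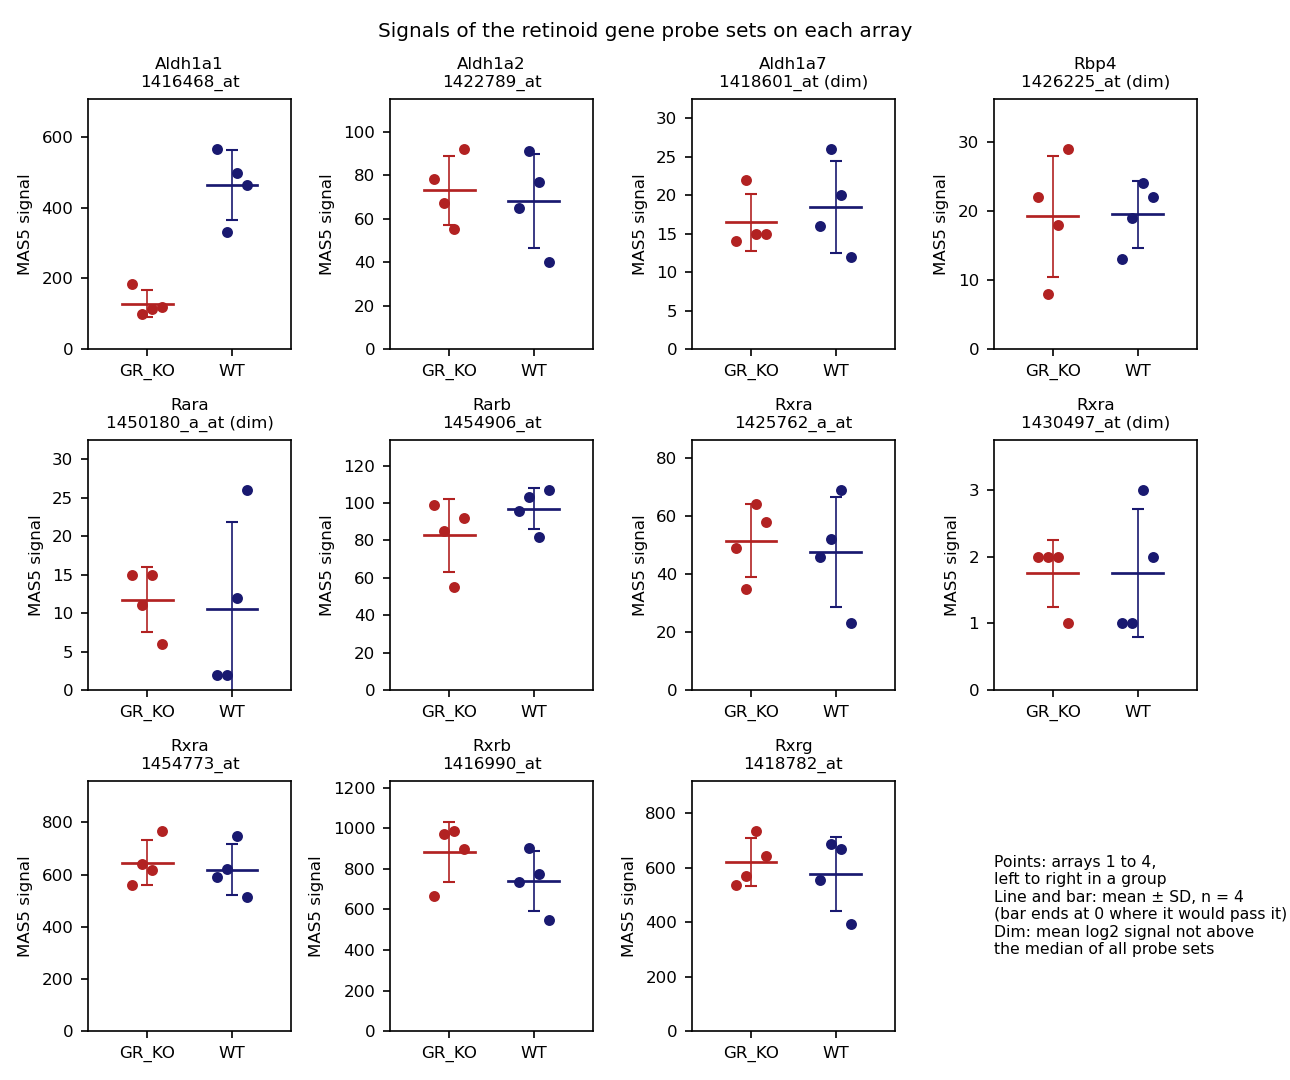
MAS5 signal (linear, vertical axis from 0 in each panel) of the 11 probe sets of the 9 retinoid genes, with GR_KO arrays in red on the left and WT arrays in dark blue on the right; points are arrays 1 to 4 from left to right, and lines and bars are means ± SD of 4 arrays. The Aldh1a1 points fall into separate groups, 99 to 184 in GR_KO and 330 to 566 in WT muscle, and the groups overlap in every other panel.

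Markers of other cells were set beside the fall of Aldh1a1, since muscle capillaries and connective tissue also lie in the sample. Endothelial markers were higher in sum on the GR_KO arrays: the 9 of 9 markers tested had a summed signal of 4062 to 5782 in GR_KO and 3184 to 3914 in WT muscle, without overlap, and 8 of the 9 had a positive log2 fold change. On its own 1 of the 9 had separate groups, with GR_KO higher, as was seen in 1.28% of all genes tested. Of the 9 markers 0 passed the threshold over all genes. Their median log2 fold change was 0.35, and 0.23 without WT replicate 4. The sum of the 9 fibroblast and matrix markers found overlapped, at 16575 to 24662 in GR_KO and 13128 to 19565 in WT muscle. Of these 9, all tested, 6 had a positive log2 fold change. The median of the 9 was 0.34, against 0.35 for the endothelial list. Without WT replicate 4 it was 0.18, against 0.23 for the endothelial list. The collagen genes Col1a2 (0.74 ± 0.28) and Col3a1 (0.62 ± 0.27) and the fibroblast receptor Pdgfra (-0.41 ± 0.19, each as log2 fold change ± SE) differed in sign, and 0 of the 9 passed the threshold over all genes (adjusted p = 0.880 for these 3, limma). The adipocyte markers, with 7 of 9 found and 4 tested, overlapped in sum, at 15134 to 17934 in GR_KO and 12298 to 30784 in WT muscle. Most of that sum was Car3, which muscle fibres also express, at 11555 to 14414 in GR_KO and 9829 to 25225 in WT muscle, so the sum says little about fat. Smooth muscle and pericyte markers summed to 4951 to 6154 in GR_KO and 5090 to 6520 in WT muscle, macrophage markers to 640 to 884 in GR_KO and 605 to 890 in WT muscle, and the 4 of 7 Schwann cell markers found to 661 to 2232 in GR_KO and 491 to 2058 in WT muscle. WT replicate 4 had the lowest sum of the fibroblast, endothelial and Schwann cell lists and the highest of the smooth muscle list. It also had the highest Car3 signal, 25225. Its signals of the fat hormone genes Retn, 16, and Adipoq, 23, were the lowest and the next to lowest of the WT group. Fabp4, the remaining tested adipocyte marker, went the other way, and its signal on WT replicate 4, 5501, was the highest of all arrays. No marker was at 0 on all arrays. The part of these cells in the result was not tested.

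Aldh1a2, the retinaldehyde dehydrogenase that supplies most retinoic acid in the early mouse embryo, did not follow Aldh1a1. Its signals were 78, 67, 55 and 92 on the GR_KO arrays and 65, 91, 77 and 40 on the WT arrays. The groups overlapped, and the lowest of all 8 signals was that of WT replicate 4. On the log2 scale the fold change was 0.13 ± 0.27 (SE), with a 95% interval from -0.45 to 0.72 (limma over all genes, adjusted p = 0.928), so a change of the size seen for Aldh1a1 lay outside the interval. Without WT replicate 4 it was -0.10.

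Aldh1a7, the neighbour of Aldh1a1 in the mouse genome, is a related aldehyde dehydrogenase. Its probe set was dim: 14, 22, 15 and 15 in GR_KO and 16, 26, 20 and 12 in WT muscle. The mean was 16.5 ± 3.7 in GR_KO and 18.5 ± 5.97 in WT muscle (SD, n = 4 each), below the filter, a signal of 19.4 that was the median over all probe sets, so it was not tested. The groups overlapped, with a log2 fold change of -0.13, which was 0.05 without WT replicate 2 and -0.32 without WT replicate 4. Whether the probes of either gene also bind the transcript of the other was not analysed here, so the split of signal between these 2 close relatives is uncertain.

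Rbp4, the retinol carrier of plasma, which liver and fat make, was also dim and was not tested. Its signals were 22, 8, 18 and 29 on the GR_KO arrays and 13, 19, 24 and 22 on the WT arrays. Both the lowest and the highest of the 8 signals were those of GR_KO arrays, so the spread within that group exceeded the difference of the means, 19.2 ± 8.77 in GR_KO and 19.5 ± 4.8 in WT muscle (SD, n = 4 each). The log2 fold change was -0.13, and 0.25 without GR_KO replicate 2. Adipoq, the gene of the fat hormone adiponectin, had signals of 38, 31, 19 and 59 on the GR_KO arrays and 19, 61, 87 and 23 on the WT arrays. The lowest Rbp4 signal of the GR_KO group was on replicate 2 and the lowest Adipoq signal on replicate 3, while replicate 4 had the highest of both. In the WT group replicate 1 had the lowest and replicate 3 the highest of both.

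Among the retinoic acid receptors, Rara was below the filter and Rarb above it. Rara, the receptor found in most tissues, gave 15, 11, 15 and 6 on the GR_KO arrays and 2, 2, 12 and 26 on the WT arrays. The WT signals spread over more than the whole GR_KO range, and the gene was not tested. The log2 fold change of 0.89 includes the WT signals of 2, and it was 0.32 with a pseudocount of 6 and 1.60 without WT replicate 4.

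Rarb, which has the repeat shown above at its annotated start, gave 99, 85, 55 and 92 on the GR_KO arrays and 96, 103, 82 and 107 on the WT arrays. The groups overlapped, with GR_KO replicate 3 the lowest of all. The mean was 82.8 ± 19.4 in GR_KO and 97 ± 11 in WT muscle (SD, n = 4 each). Rarb thus had a log2 fold change of -0.26 ± 0.20 (SE), with a 95% interval from -0.71 to 0.19 (limma over all genes, adjusted p = 0.880). It was -0.0719 without GR_KO replicate 3.

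The RXR receptors were bright and overlapped between the groups. Rxra, the RXR with the widest known role in metabolism, gave 559, 640, 618 and 767 on the GR_KO arrays and 591, 623, 747 and 515 on the WT arrays at its brightest probe set, 1454773_at. That is a log2 fold change of 0.06 ± 0.15 (SE), with a 95% interval from -0.27 to 0.40 (limma over all genes, adjusted p = 0.940). A further Rxra probe set above the filter, 1425762_a_at, gave 49, 35, 64 and 58 on the GR_KO arrays and 46, 52, 69 and 23 on the WT arrays, a log2 fold change of 0.19 ± 0.34 (SE). The remaining one, 1430497_at, had signals between 1 and 3 on all arrays and carried no usable value.

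Rxrb, a broadly expressed RXR, gave 667, 972, 987 and 897 on the GR_KO arrays and 733, 902, 776 and 550 on the WT arrays. On 2 GR_KO arrays the signal was above the highest WT signal, and replicate 1 was below 3 of the WT signals. Rxrb had a log2 fold change of 0.26 ± 0.18 (SE), with a 95% interval from -0.14 to 0.66 (limma over all genes, adjusted p = 0.880), and it was 0.12 without WT replicate 4.

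Rxrg, the RXR best known from skeletal muscle and brain, gave 536, 570, 735 and 644 on the GR_KO arrays and 554, 688, 668 and 392 on the WT arrays. The log2 fold change was 0.13 ± 0.19 (SE), with a 95% interval from -0.28 to 0.55 (limma over all genes, adjusted p = 0.909). Leaving out WT replicate 4 turned the sign for Rxrg, to -0.0395, and for Rxra, to -0.0192. The intervals of the 3 RXR genes allow a fall to 0.821 to 0.905 of the WT level and a rise to between 1.32 and 1.58 times that level.

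**Figure D2:**
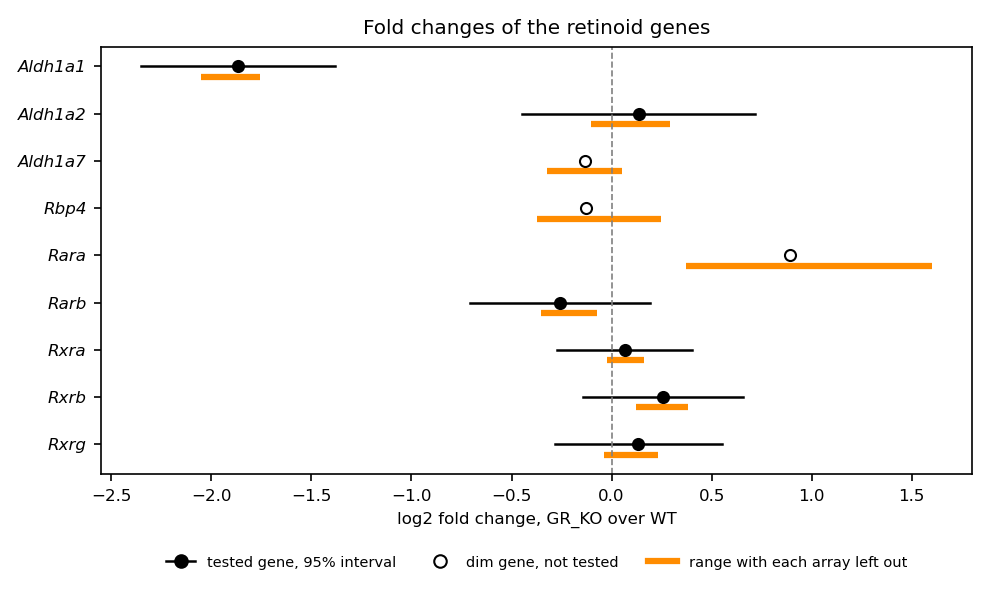
Log2 fold change of GR_KO over WT (horizontal axis) for the brightest probe set of each of the 9 retinoid genes; filled points with black lines are the 6 tested genes with 95% intervals, open points the 3 dim genes, and orange bars the range when each array was left out in turn. The interval of Aldh1a1, -2.35 to -1.38, lies apart from 0, and those of Aldh1a2, Rarb, Rxra, Rxrb and Rxrg include it.

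Taking the 6 tested genes side by side, 2 lay below 0 and 4 above on the log2 fold change scale, with a median of 0.10, against a median of 0.01 over all 11062 genes, of which 47.8% were below 0. Of the 6, 1 was called lower and 0 higher, against 0.0542% and 0% of all genes tested. WT replicate 4 had the lowest WT signal for 5 of the 9 genes, Aldh1a2, Aldh1a7, Rxra, Rxrb and Rxrg, and the highest for Rara and Rarb. Its deviation from the mean of its group was -0.71 for Aldh1a2, -0.52 for Rxrg, -0.41 for Rxrb and -0.25 for Rxra on the log2 scale, and 0.02 for Aldh1a1. For each of the 5 genes its signal was also the lowest of all 8 arrays.

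**Figure D3:**
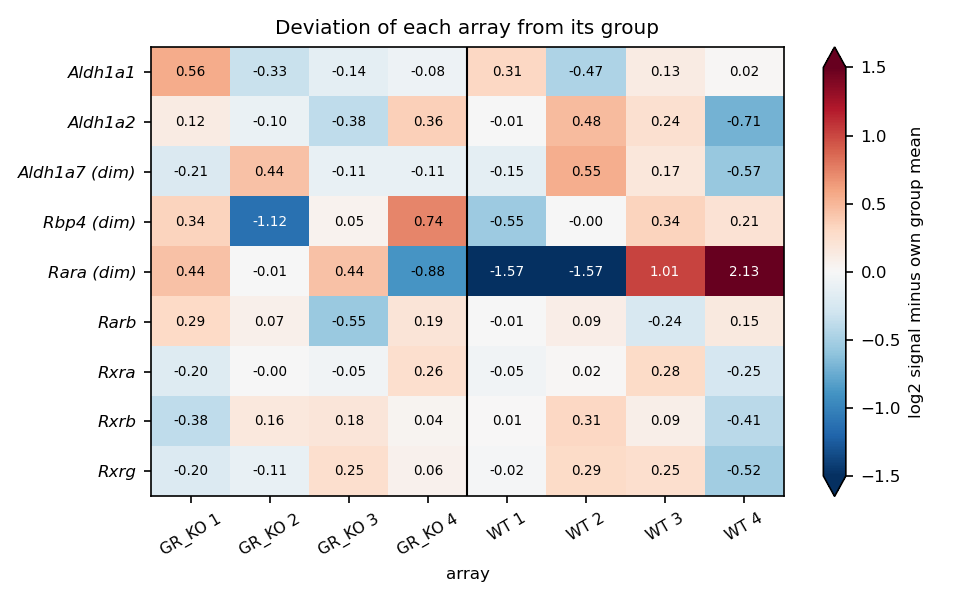
Log2 signal of each array minus the mean of its own group, for the brightest probe set of the 9 retinoid genes (rows) on the 4 GR_KO arrays (left of the line) and the 4 WT arrays (right); red is above and blue below the group mean, and colours stop at 1.5 in either direction. WT replicate 4 is below its group for Aldh1a2 (-0.71), Rxrb (-0.41) and Rxrg (-0.52) and near it for Aldh1a1 (0.02), and the dim gene Rara runs from -1.57 to 2.13 among the WT arrays.

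The wider retinoid pathway was taken from 7 lists with 89 genes outside the 9, of which 82 were found on the array and 52 were tested. Of these 52 genes 0 passed the threshold in limma over all genes in either direction, and 3 had an unadjusted p under 0.05. The lower gene of these made up 1.92% of the 52, where 2.26% of all genes tested were lower at that level, and the 2 higher genes 3.85%, where 2.37% of all genes were higher. On the log2 scale 22 of the 52 fold changes were negative and 30 positive, with a median of 0.0266. The lists were drawn up with earlier results of these data known.

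Retinoic acid breakdown and binding was represented by 2 tested genes of 6. Cyp26b1, a cytochrome that degrades retinoic acid and is itself induced by it, gave 74, 160, 196 and 94 on the GR_KO arrays and 72, 77, 73 and 66 on the WT arrays. On 3 GR_KO arrays the signal was above the highest WT signal, and replicate 1 lay within the WT range. Its log2 fold change was 0.76 ± 0.28 (SE, adjusted p = 0.880). Fabp5, a lipid carrier that can bring retinoic acid to other receptors, had 0.28 ± 0.16 (SE, adjusted p = 0.880). Cyp26a1, Crabp1 and Crabp2 were dim.

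Genes that convert retinol and retinaldehyde into each other had 10 tested members of 17, 4 with a negative and 6 with a positive fold change. Dhrs4, a reductase of retinaldehyde and other carbonyls, gave 102, 76, 63 and 97 on the GR_KO arrays and 128, 92, 132 and 120 on the WT arrays, and the groups overlapped through WT replicate 2. Its log2 fold change was -0.49 ± 0.20 (SE, adjusted p = 0.880), and its other probe set above the filter had -0.29. Rdh10, the enzyme of the first oxidation step, had -0.36 ± 0.29, Adh7 -0.34 ± 0.25 and Dhrs3, which reduces retinaldehyde back to retinol, 0.16 ± 0.16 (SE). None of the 10 was called.

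Uptake and storage genes had 3 tested members of 10, 1 with a negative and 2 with a positive fold change. Dgat1, which can esterify retinol, had a log2 fold change of 0.28 ± 0.14, and the retinol-binding protein Rbp7 had 0.41 ± 0.24 (SE, adjusted p = 0.880 for both). Rdh10, which is also on this list, went the other way, at -0.36 ± 0.29 (SE, adjusted p = 0.880). The retinol receptor Stra6 and the retinol esterifying enzyme Lrat were dim.

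Of the other aldehyde dehydrogenases, 12 of 17 were tested, 5 with a negative and 7 with a positive fold change, and 0 were called. Aldh4a1, a mitochondrial enzyme of proline breakdown, gave 119, 139, 132 and 124 on the GR_KO arrays and 95, 74, 91 and 42 on the WT arrays. All GR_KO signals were above all WT signals, as in 1.28% of all genes tested. Its log2 fold change was 0.83 ± 0.24 (SE) and did not pass over all genes (adjusted p = 0.850). Aldh1l1 of folate metabolism had 0.40 ± 0.21, Aldh5a1 of GABA breakdown -0.46 ± 0.28 and Aldh18a1 of proline synthesis 0.47 ± 0.33 (SE). Aldh1a3, the remaining retinaldehyde dehydrogenase of the Aldh1a group, was dim, at 2 to 5 on all arrays.

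Rarg and the receptor coregulators had 12 tested members of 14, 6 below 0 and 6 above, and 0 called. Rarg gave 179, 256, 272 and 268 on the GR_KO arrays and 231, 270, 262 and 198 on the WT arrays, with a log2 fold change of 0.01 ± 0.17 (SE). The 4 members with the smallest p were Med1 (0.45 ± 0.26), Tbl1xr1 (-0.22 ± 0.13), Nrip1 (0.31 ± 0.21) and Crebbp (0.32 ± 0.25), each as log2 fold change ± SE. Partner receptors of RXR had 7 tested members of 10, 4 below 0 and 3 above, and 0 called. The 4 with the smallest p were Nr4a1 (-0.30 ± 0.16), Nr1h3 (-0.21 ± 0.15), Ppard (-0.20 ± 0.16) and Nr4a2, whose 95% interval ran from -0.20 to 2.21.

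Textbook target genes of retinoic acid had 9 tested members of 23, 3 below 0 and 6 above, with 0 called and a median log2 fold change of 0.16, which was 0.07 without WT replicate 4. After Cyp26b1 the smallest p-values were those of Nr2f2 (0.18 ± 0.15), Meis1 (0.26 ± 0.24) and Hoxa5 (-0.35 ± 0.33). Tgm2, tissue transglutaminase, gave 1209, 1428, 2053 and 1601 on the GR_KO arrays and 1624, 1614, 1432 and 1427 on the WT arrays, and the groups overlapped (log2 fold change 0.02 ± 0.16, SE). Of the 23 genes 12 were dim, among them Cyp26a1 and Stra6, so a change in them could not be seen here.

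**Figure D4:**
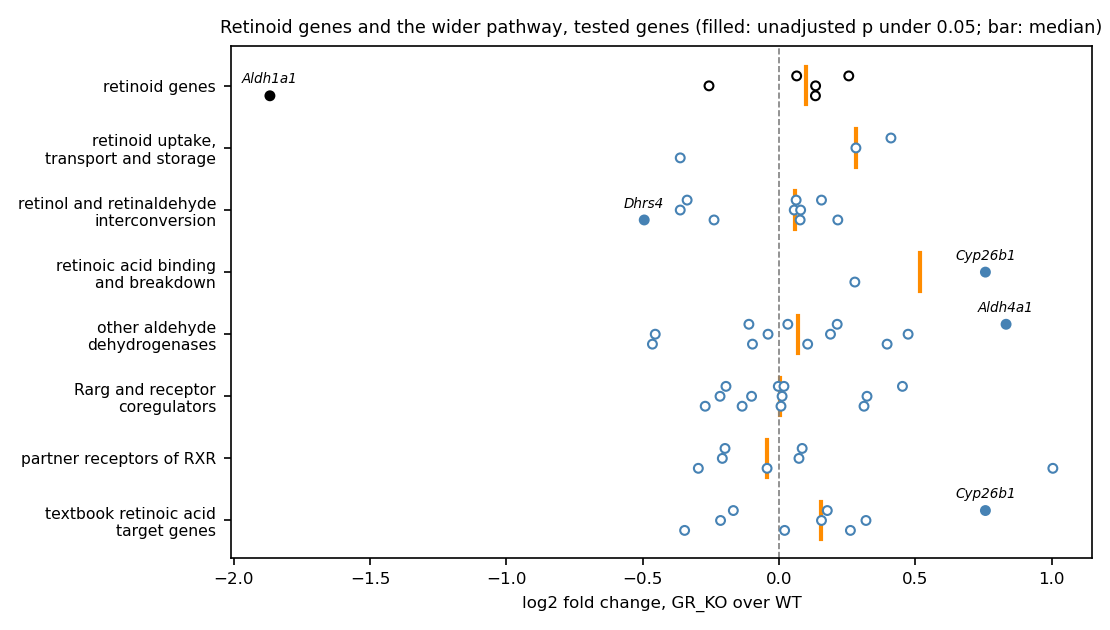
Log2 fold change of GR_KO over WT (horizontal axis) for the tested genes of the 9 retinoid genes (black) and of 7 lists of the wider pathway (blue); each point is a gene at its brightest probe set, filled where the unadjusted p was under 0.05, and orange bars are medians. Aldh1a1 lies at -1.87, and the filled points of the lists are Dhrs4 at -0.49, Cyp26b1 at 0.76 and Aldh4a1 at 0.83.

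The tested genes whose signals ran most closely with Aldh1a1 over the 8 arrays were Rab7 (Pearson r = 0.983), Zcchc24 (0.981), Oat (0.981), Art3 (0.973) and Slc2a3 (0.973), out of 11061 genes compared. With 8 arrays in 2 groups the difference between the groups enters these values, and the 5 genes had log2 fold changes of -0.84, -0.53, -0.87, -0.59 and -1.33. Slc2a3, a glucose transporter, was among the genes called lower, and the other 4 were not called. For Rbp4 the 5 closest genes, 2810004N23Rik, Aqr, Cxcr4, Mcam and Stam2, had r between 0.934 and 0.957 and log2 fold changes between -0.14 and 0.05. None of them was among the 4 adipocyte markers tested, which are too few of the 11062 genes compared for this to say where the Rbp4 signal comes from.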

How the data were processed

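Total RNA of 8 gastrocnemius samples was measured on 8 Affymetrix arrays. The authors deposited linear signal intensities made with MAS5, per the submitters' processing notes, and all were whole numbers. No version or scaling target is stated in the labels. The log2 of each signal was taken with no pseudocount, and a 0 was set to the smallest positive value of its array. Of 45101 probe sets 64 were controls and were left out. Each of 18193 genes stood by its brightest single-gene probe set and was tested when that probe set's mean over the arrays exceeded the median of all probe sets (log2 scale), which held for 11062 genes.

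GR_KO was compared with WT in R 4.3.3 with limma 3.58.1, as a two-sided test with group as the only term and a mean-variance trend in eBayes. P-values were adjusted by Benjamini-Hochberg over every gene tested, at a threshold of 0.05. A second fit took all 22518 non-control probe sets above the filter. Errors are SE of the fit or SD over 4 arrays. The labels do not say that samples of a group were separate animals, so the p-values cover only the spread between these samples, in part perhaps technical. The steps were tested on simulated data. Promoters were aligned with Biopython 1.88, and figures drawn in Python 3.11.15.

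The genes, lists and tests were chosen with earlier results of these data known. The text names all member probe sets, up to 4 tested genes a list by smallest p, and the 5 genes most correlated with Aldh1a1 and with Rbp4. Adipoq, Retn, Fabp4, Car3, Col1a2, Col3a1, Pdgfra, Rarg, Tgm2, Aldh1a3 and the dim genes named were picked from the lists after their values were seen. Alternatives were other normalizations, pseudocounts, filters, probe set summaries, priors, array weights, a replicate block, a threshold of 0.10, an exact permutation test and leaving out each array.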

Additional observations from a re-analysis of the deposited data

Results flagged for a closer look

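In the GR_KO group 1 array stood apart for Aldh1a7. Its signals were 14, 22, 15 and 15, and the gap from replicate 2 to the next array was 0.847 of the range on the log2 scale, above Dixon's 95% critical value of 0.829 for 4 samples. Chance flags about 1 in 20 groups, and this probe set was below the signal filter.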

How the results depend on the processing

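Aldh1a1 was lower under all 21 alternatives, with log2 fold changes from -2.05 to -1.76, but its call was less firm. With no filter, and 18193 genes tested, 0 member genes and 0 member probe sets were called lower in place of 1 each (Aldh1a1 adjusted p = 0.0863), and likewise 0 of both with eBayes without trend (0.0548). With single arrays left out 0 to 1 member genes and 0 to 1 member probe sets were called. Over all genes the 6 lower calls became 0 with no filter, 1 with the mean of a gene's probe sets, 2 without trend, 10 with array weights, and 0 to 5 with single arrays left out; the cause was not tested. In no alternative was a member gene, or any gene of the array, called higher. Aldh1a2 changed sign with array weights (-0.0939) and without WT replicate 4, with a range of -0.10 to 0.29 over single arrays left out. Rxra changed sign without GR_KO replicate 4 and without WT replicate 4 (range -0.0208 to 0.16), and Rxrg without WT replicate 4 (range -0.0395 to 0.23). Of the untested genes Aldh1a7 changed sign without WT replicate 2 (range -0.32 to 0.05) and Rbp4 without GR_KO replicate 2 (range -0.37 to 0.25), while array weights gave no value for them or for Rara, which are not in that fit. In the exact permutation test of single values Aldh1a1 had p = 0.0286, the smallest that 4 against 4 allows, unadjusted, two-sided. The labels do not say whether same-numbered samples were paired. Same-numbered arrays had correlations of their deviations of -0.192, 0.181, 0.111 and -0.395, and 1 of the 4 GR_KO arrays correlated best with its own number. Such correlations cannot decide whether the samples were paired, since shifts of a whole array also enter them. With the replicate block 1 gene and 0 member probe sets were called lower, and Aldh1a1 had an adjusted p of 0.0196 in the gene fit. Dim signals limit Aldh1a7, Rbp4 and Rara.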
